A study of Mus musculus with 3 samples.

Results

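Titin, nebulette, nebulin and 6 further genes of the Z-disc, the M-band and the thick filament were examined for regions enriched in 5-methylcytosine (5mC) in mouse cardiomyocytes. The genes were Ttn, Nebl, Neb, Actn2, Ldb3, Flnc, Myom1, Myom2 and Mybpc3, chosen by name, 9 of the 21887 protein-coding genes considered. Every peak that touched a gene body or the 5 kb on either side was taken, which gave 60 of 135886 Sham peaks and 74 of 162107 TAC peaks. Methylated DNA immunoprecipitation with sequencing (MeDIP-seq) had been applied to cardiomyocytes of male C57Bl6/J mice aged 8 weeks, with 1 library after Sham surgery and 1 after pressure overload by TAC, a surgical narrowing of the aorta, of 1 week by the series title. Immunoprecipitation and libraries were made by a commercial service (Active Motif) with its own antibody. The third sample, input DNA without antibody, entered the authors' peak calling. No transgene or other treatment is named in the labels. The sources used here do not say whether a library pooled several animals, nor when the Sham cells were taken.

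In the sarcomere, titin is a giant elastic protein that reaches from the Z-disc, where thin filaments of neighbouring sarcomeres are anchored, to the M-band, where thick filaments are cross-linked. The Z-disc is held together by alpha-actinin and its partners, and the M-band by myomesins. In DNA, 5mC at CpG-rich starts of genes usually accompanies silencing, while methylation inside the bodies of genes is common and does not have that meaning. A peak here is a stretch of the genome with more immunoprecipitated fragments than the input had. It is neither a methylation level nor a measure of expression, and with 1 library per group no difference below has a replicate check or a test.

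The libraries held 12585289 Sham and 14658177 TAC tags, and the tag threshold per 10000000 tags was 8.74 in Sham and 8.19 in TAC and thus lower in TAC. Of all tags, 29.9% lay in peaks in Sham and 34.7% in TAC. Tag numbers below are scaled by total tags, which leaves this difference between the libraries in them. The cell type label could not be checked by expression. Windows of 7 cardiomyocyte markers held 29 Sham and 43 TAC peaks, 6 fibroblast markers 14 and 22, 5 endothelial markers 38 and 33, 4 immune markers 12 and 22, and 3 smooth muscle markers 13 and 17. These sums were not scaled by gene length. The most peaks in a single cardiomyocyte marker were 21 in Sham and 31 in TAC, and 2 of the 7 held none. The part of other cells in the results below was not tested.

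Few peaks lay just before the listed starts of these genes, as at listed starts over the genome. RefSeq (GRCm38.p6, the assembly of mm10) gives 12 start sites for 7 of the genes, not including Neb and Myom2. Some of them lie inside the annotated gene, so its outer 5′ end was not covered. The listed start of Myom1 is 71019557 in a gene from 71003332. The outermost start of Nebl is 17731134 in a gene that ends at 17734949. The starts of Ldb3 (34588607 and 34588681) and of Flnc (29433153 and 29433256) lie close together, with overlapping windows. Of the 250 bases before each start, a Sham peak touched none of 12 and a TAC peak 1 of 12, where over all 32851 annotated starts 4.58% were touched in Sham and 4.54% in TAC. The exception was Actn2, the gene of the sarcomeric alpha-actinin. The sequences are, 5′ to 3′, the 250 bases before that start and, for contrast, those of Ttn and Mybpc3 and the most CpG-rich start of Nebl, with each CpG in capitals. At least 1 CpG (the letters CG, the same on both strands) occurred in 92.1% of all such windows, and their median number was 6.

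Actn2, chr13:12340733-12340982, minus strand: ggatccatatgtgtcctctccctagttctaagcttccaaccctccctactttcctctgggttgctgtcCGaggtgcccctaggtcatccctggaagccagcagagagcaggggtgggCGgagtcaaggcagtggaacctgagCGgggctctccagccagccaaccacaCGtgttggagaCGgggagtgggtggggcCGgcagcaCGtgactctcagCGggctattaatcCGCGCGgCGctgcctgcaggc
Ttn, chr2:76982548-76982797, minus strand: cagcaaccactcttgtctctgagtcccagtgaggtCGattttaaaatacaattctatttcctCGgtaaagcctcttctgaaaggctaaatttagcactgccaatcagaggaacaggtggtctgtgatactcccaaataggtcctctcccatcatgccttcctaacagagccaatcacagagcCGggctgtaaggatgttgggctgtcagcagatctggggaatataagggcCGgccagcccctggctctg
Nebl, chr2:17731135-17731384, minus strand: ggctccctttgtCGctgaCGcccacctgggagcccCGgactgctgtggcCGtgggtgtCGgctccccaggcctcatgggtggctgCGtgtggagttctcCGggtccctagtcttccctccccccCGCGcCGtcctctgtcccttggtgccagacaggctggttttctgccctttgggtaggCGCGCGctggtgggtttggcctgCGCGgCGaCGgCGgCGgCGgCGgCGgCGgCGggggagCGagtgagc
Mybpc3, chr2:91117894-91118143, plus strand: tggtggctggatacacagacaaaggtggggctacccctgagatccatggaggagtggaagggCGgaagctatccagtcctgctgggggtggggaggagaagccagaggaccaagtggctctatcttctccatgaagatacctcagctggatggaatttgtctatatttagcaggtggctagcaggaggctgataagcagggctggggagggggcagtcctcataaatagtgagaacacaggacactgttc

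The Actn2 window held 12 CpGs, a number reached by 33.5% of all starts. A peak upstream of it was present in both libraries, from 12341062 to 12341715 in Sham and from 12340879 to 12341800 in TAC. The TAC peak was the wider and covered the outer 104 bases of the window with 1 of its 12 CpGs, while 79 bp separated the Sham peak from the window. The totals of both were alike, at 36.6 and 36.8 inferred tags per 10000000 (the inference from the order of each list is given under the processing). These totals covered 654 bp in Sham and 922 bp in TAC and were not divided by width. The Ttn window held 4 CpGs, and its nearest peaks lay 4347 bp upstream in TAC and 35482 bp downstream in Sham. The Nebl window held 25 CpGs, a number reached by 10.7% of starts, and no peak came closer than 4515 bp in TAC or 4739 bp in Sham. The Mybpc3 window held 1 CpG, with peaks 743 bp upstream in TAC and 880 bp upstream in Sham. The other Nebl starts had 0 to 3 CpGs, and the other genes' starts 2 to 24.

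Over the 9 genes TAC held 1.23 times as many peaks as Sham (95% interval 0.866 to 1.76, counting error only), beside 1.19 over the whole lists and 1.08 over all protein-coding genes. Peaks that met at 1 bp or more were counted as shared, which were 39 in each library, leaving 21 Sham-only and 35 TAC-only peaks. Gene bodies held 54 Sham and 64 TAC peaks and the flanks 6 and 10. By role, titin held 5 and 10 peaks, the nebulin family 30 and 35, the other Z-disc genes 7 and 10, the M-band genes 15 and 16, and Mybpc3 3 and 3. The shared part was 65.0% of Sham peaks (51.6 to 76.9) and 52.7% of TAC peaks (40.7 to 64.4), close to the 66.1% and 55.6% of all peaks. Unshared peaks had a TAC to Sham ratio of 1.67 (0.944 to 3.01), with 1.56 over the whole lists. The excess moved with the threshold. With the TAC list reduced to its first 135886 rows, the genes held 61 TAC and 60 Sham peaks, with 23 and 22 unshared. Of the 35 unshared TAC peaks, 11 had fewer inferred tags per 10000000 than the Sham threshold.

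More TAC than Sham peaks were found in 5 of the 9 genes (55.6%), where 43% of protein-coding genes with a peak had more in TAC. Fewer were found in 2 (22.2%), against 30.9%, and equal numbers in 2. Of the 8 genes with 5 or more peaks in all, 3 (Ttn, Actn2 and Flnc) had at least 1.5 times as many in TAC, or 37.5%, where the share over genes was 24.9%. None had 1.5 times as many in Sham, where the share was 17.2%. Every interval of the TAC share of a gene's peaks held an even split. With the TAC list reduced to the Sham number of rows, 3 of the 9 genes had more TAC peaks, and Actn2 then had 3 Sham and 2 TAC peaks. That cut falls among tied peaks. It dropped a TAC peak of Actn2 with 13 inferred tags and kept a TAC peak of Ttn with as many. At a nearly equal threshold per tag (at least 11 in Sham and 13 in TAC), 4 genes had more TAC peaks, and Actn2 held 3 in each library. In the first 50% of rows of each list the numbers were 2 Sham and 1 TAC in Ttn, 2 and 1 in Flnc, and 2 and 2 in Actn2, so none of these 3 genes kept its excess there.

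**Figure D1:**
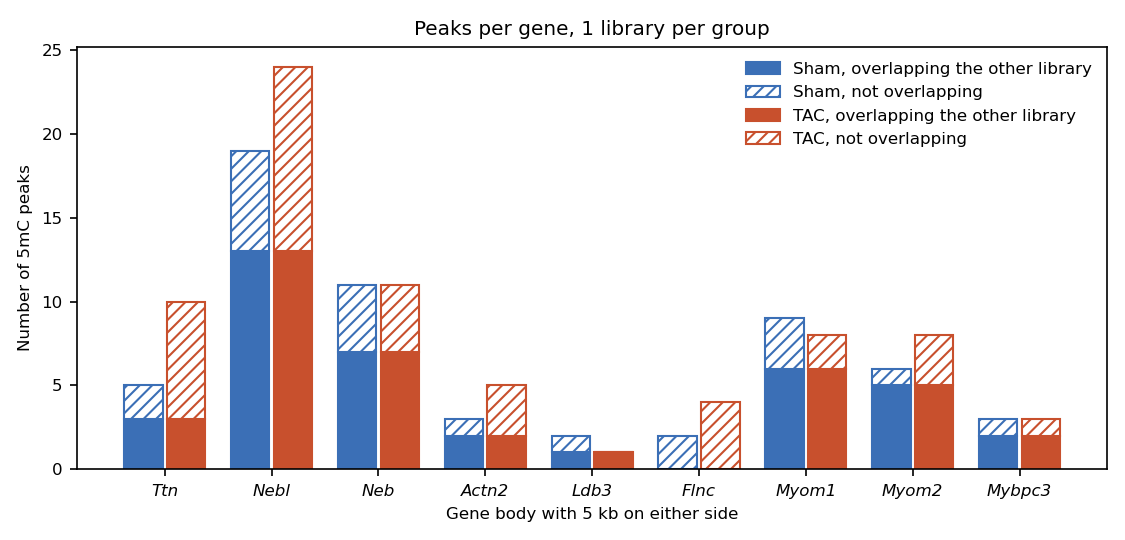
Number of 5mC peaks (y axis) in each gene body with 5 kb on either side, Sham in blue and TAC in red, 1 library each. Solid parts are shared peaks and hatched parts unshared ones. Nebl held the most peaks (19 Sham and 24 TAC), and the hatched part of Ttn was 2 in Sham and 7 in TAC.

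Ttn encodes titin, which acts as a molecular spring and as a template for the thick filament. It lies on chromosome 2 from 76703980 to 76982557 (278.6 kb), with no other annotated gene within the window. Sham had 5 peaks there and TAC 10, and 3 in each were shared. TAC thus made up 66.7% of the peaks (38.4 to 88.2). Peaks were sparse, with 0.173 per 10 kb in Sham and 0.347 in TAC, beside medians of 0.527 and 0.606 over protein-coding genes of 50 kb or more. Among 382 protein-coding genes within 20% of its length, 33 held fewer Sham peaks and 51 fewer TAC peaks.

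The peaks of Ttn were weak in both libraries. The place of a peak in its list, as a percentage of rows from the strongest, had a median of 73.0% in Sham and 66.4% in TAC. The earliest in TAC, and the widest in Sham, was a shared pair nearer the 5′ end, 76928515 to 76929145 in Sham (place 42.6%) and 76928521 to 76929274 in TAC (place 21.0%). In depth-scaled tags this pair stood at 15.9 in Sham and 25.9 in TAC, a ratio of 1.63 (0.926 to 2.96). The earliest in Sham, 76710313 to 76710813, lay near the 3′ end at place 40.1%. The point estimates of the other pairs were below 1, at 0.736 (0.370 to 1.45) and 0.793 (0.331 to 1.88). A stretch of 159.7 kb, from 76738135 to 76897788, held no Sham peak, and TAC peaks in it began at 76812880 and 76827348, at places 83.3% and 97.0%. The 74.7 kb from 76738184 to 76812879 held none in either library. All 7 TAC-only peaks stood past the first 50% of rows (places 51.2% to 97.0%), and 2 of them lay below the depth-scaled Sham threshold.  The 500 kb beyond the window on either side held 76 peaks in Sham and 90 in TAC, or 1.18 times as many (0.863 to 1.63).

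Nebl encodes nebulette, the cardiac Z-disc relative of nebulin that binds actin. Its gene on chromosome 2 runs from 17342673 to 17734949 (392.3 kb) on the minus strand and contains the microRNA gene Mir6419. The window held 19 Sham and 24 TAC peaks, of which 13 in each were shared, 6 were Sham-only and 11 TAC-only. The TAC share was 55.8% (39.9 to 70.9). Densities were 0.472 and 0.597 per 10 kb. Of 263 protein-coding genes of like length, 122 held fewer Sham and 132 fewer TAC peaks, which puts Nebl near the middle.

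The strongest peak in Nebl was shared and lay 11.5% of the gene length from its 5′ end, from 17689305 to 17690272 in Sham and from 17689277 to 17690336 in TAC. It stood at places 5.09% and 2.27% and at 58.8 and 82.5 depth-scaled tags, a ratio of 1.40 (1.04 to 1.90). The widest TAC peak, 17665801 to 17667294 (1494 bp), overlapped a narrower Sham peak at 17665828 to 17666328, with 10.3 tags in Sham and 25.2 in TAC, a ratio of 2.44 (1.27 to 5.01). Of the 13 pairs, 9 were higher in TAC and 4 lower, and the intervals of 4 pairs lay above 1. Over the whole lists the interval lay above 1 in 15% of pairs and below 1 in 8.8%. The larger share of TAC tags in peaks was not taken out of these ratios. The remaining Nebl pairs with an interval above 1 were at 17493066 (ratio 1.95) and 17620572 (ratio 1.68), positions as in TAC. In all 4 pairs the TAC peak was the wider. Tags were totals over each peak and not divided by its width, so these ratios do not compare tags per base. The part of width in them was not tested. No pair of Nebl had an interval below 1.

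Nebl had long stretches with TAC peaks alone towards its 3′ end. The first 85.1 kb by coordinate, 17342673 to 17427724, held no Sham peak and 3 TAC peaks, at places from 62.0% to 97.0%. Between the Sham peaks ending at 17429636 and beginning at 17493123, TAC had 3 peaks in a row, all in the first 50% of its list. They were 17452825 to 17453676 (place 33.0%, 19.1 depth-scaled tags), 17464656 to 17465156 (43.0%, 15.7 tags) and 17475820 to 17476445 (48.2%, 14.3 tags). The nearest Sham peak to any of them was 16677 bp away. The Sham-only peak in the first 50% of rows, 17574676 to 17575176 (place 37.5%), lay 683 bp from a TAC peak. At the 5′ end a shared peak lay outside the annotated gene, from 17735900 to 17736650 in TAC and from 17736124 to 17736624 in Sham, and only the TAC peak came within 1 kb of the gene end. Of the 11 TAC-only peaks, 5 lay below the depth-scaled Sham threshold, and with the TAC list reduced to the Sham number of rows Nebl held 19 peaks in each library.

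**Figure D2:**
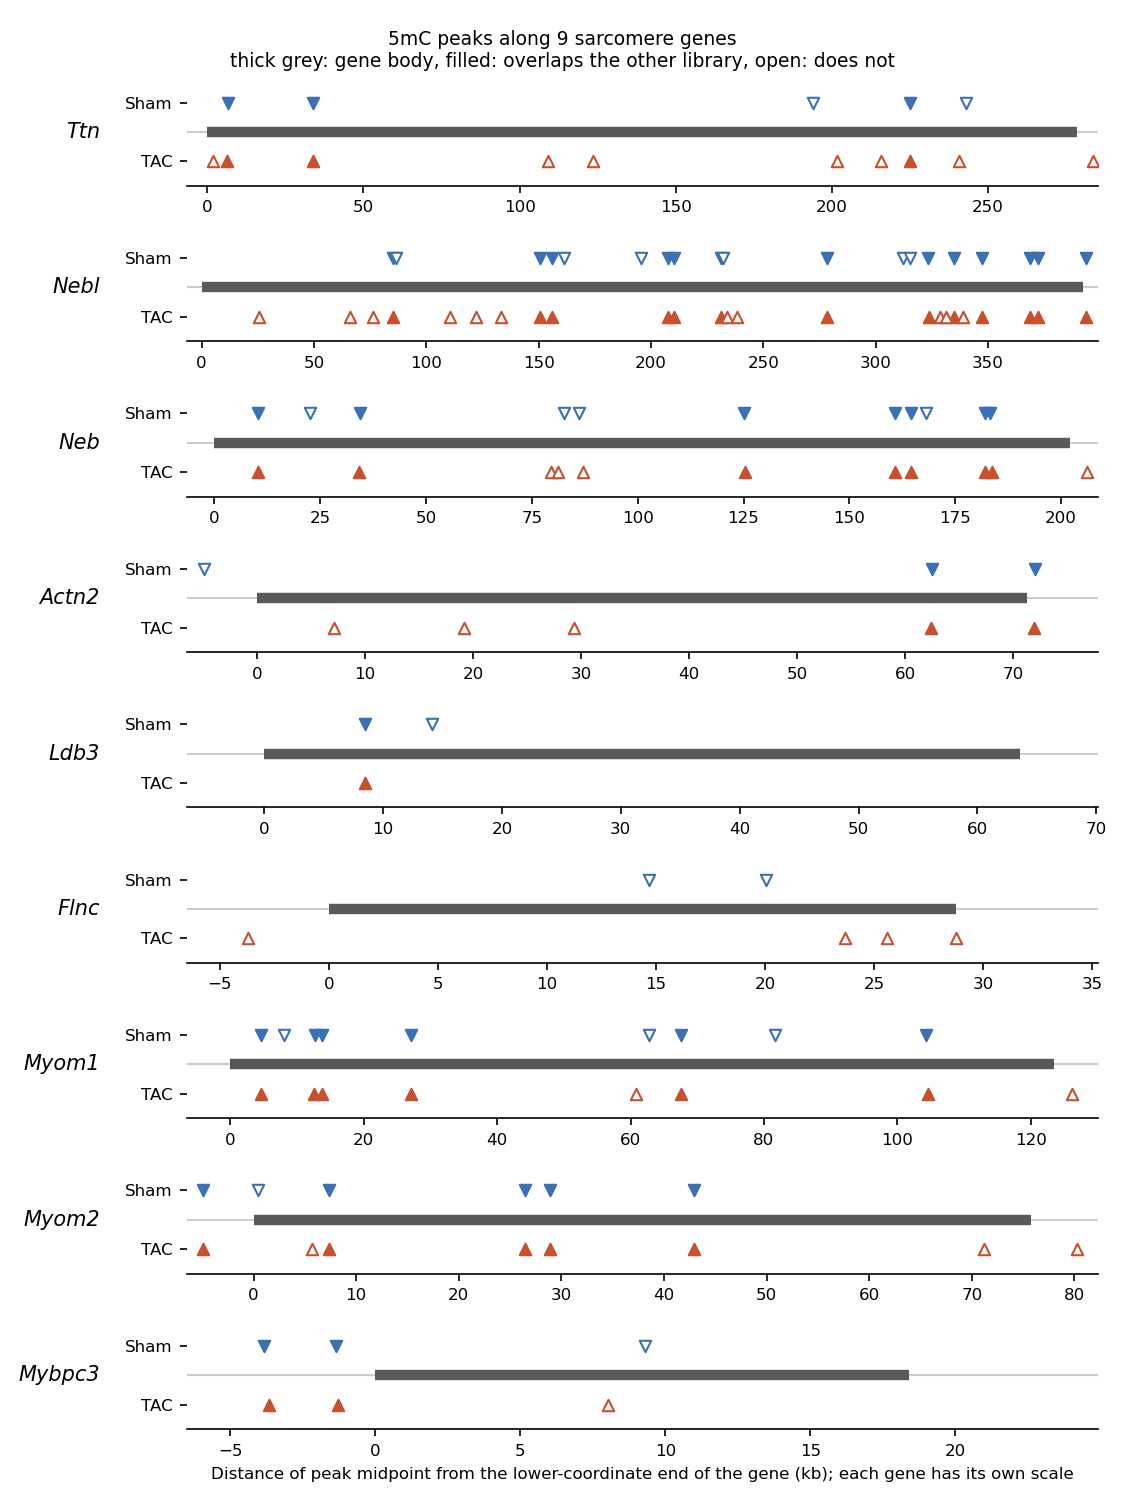
Midpoints of 5mC peaks along each gene, in kb from the lower-coordinate end of the gene (x axis, own scale per gene), with Sham above and TAC below the gene body in grey. Filled triangles overlap a peak of the other library and open ones do not. In Nebl the first 85.1 kb carry TAC peaks alone, and in Flnc no triangle is filled.

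Neb encodes nebulin, which runs along the thin filaments of skeletal muscle and is known mainly from there. It lies on chromosome 2 from 52136640 to 52338798 (202.2 kb) and held 11 peaks in each library, 7 of them shared. The shared peak from 52261563 to 52262063 in Sham (place 19.2%) stood at 27.8 and 23.9 depth-scaled tags. Within the long non-coding RNA gene 4930573O16Rik, which overlaps Neb, the pair at 52297112 in Sham and 52297107 in TAC stood at 26.2 and 24.6 tags. Of the 7 pairs, 3 were higher and 4 lower in TAC, with ratios from 0.618 to 1.64 and every interval spanning 1. Of its unshared peaks, 2 in each library had a near neighbour in the other. The Sham peak at 52222520 lay 440 bp from the TAC peak at 52223461, and that at 52218982 lay 956 bp from the TAC peak at 52217525. TAC-only peaks in the first 50% of rows were 52215750 to 52216380 (place 43.0%) and 52342513 to 52343141 in the flank (48.2%).

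Among the other Z-disc genes, Actn2 lies on chromosome 13 (12269426 to 12340732), with 3 peaks in Sham and 5 in TAC. Its shared peak inside the gene, 12331514 to 12332264 in Sham and 12331401 to 12332295 in TAC, stood at places 7.40% and 4.12% and at 49.3 and 63.4 depth-scaled tags, a ratio of 1.29 (0.924 to 1.81). The 62.1 kb of the gene on its 3′ side held no Sham peak, and the 3 TAC-only peaks there were among the weakest of the list, at places 86.5% to 94.2%. Beyond the gene, the 3′ flank held a Sham-only peak, 12264296 to 12264796, at place 59.8% and 12.7 depth-scaled tags. The long non-coding RNA gene Gm40667 overlaps Actn2 and held no peak.

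Ldb3 encodes the PDZ and LIM protein known as Cypher or ZASP, which binds alpha-actinin. It lies on chromosome 14 (34526699 to 34590314) and held 2 Sham peaks and 1 TAC peak. The shared pair, 34534930 to 34535430 in Sham, stood at 15.1 and 21.8 tags, a ratio of 1.45 (0.795 to 2.70). The other 49.2 kb of the gene, from 34541093 to its end at the 5′ side, held no peak in either library.

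Flnc encodes filamin C, an actin cross-linker of the Z-disc and of cell attachments. It lies on chromosome 6 (29433153 to 29461889), with 2 peaks in Sham and 4 in TAC, and was the one gene of the 9 without a shared peak. The Sham peaks, 29447558 to 29448058 and 29452812 to 29453598, stood in the first 50% of rows (places 33.8% and 30.2%) with 19.1 and 20.7 depth-scaled tags. The TAC peaks inside the gene lay further towards the 3′ end, from 29456557 to 29457057 (46.2%, 15.0 tags), from 29458401 to 29459039 (72.4%) and from 29461637 to 29462137 (78.1%), across the annotated end. The fourth, 29429195 to 29429695, lay in the flank before the start. Inside the gene the Sham and TAC peaks nearest each other were 2958 bp apart, and the first 14.4 kb from the start held none.

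The myomesin genes encode the proteins that cross-link thick filaments at the M-band. Myom1 lies on chromosome 17 (71003332 to 71126856), with 9 peaks in Sham and 8 in TAC, of which 6 in each were shared. Its pairs differed in direction, with 5 higher and 1 lower in TAC. The pair at 71107252 in Sham and 71107577 in TAC stood at 16.7 and 36.2 depth-scaled tags, a ratio of 2.17 (1.29 to 3.78), and that at 71070582 and 71070586 at 22.2 and 38.2, a ratio of 1.72 (1.07 to 2.81). The pair at 71016883 and 71016851 went the other way, with 24.6 and 12.3 tags, a ratio of 0.499 (0.263 to 0.919), while the pair next to it, 71015639 to 71016269 in Sham, had a ratio of 1.35 (0.858 to 2.16). The earliest peak of both lists in this gene, 71007487 to 71008330 in Sham, stood at places 12.3% and 8.08%.

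Myom2 lies on chromosome 8 (15057653 to 15133420), with 6 peaks in Sham and 8 in TAC, of which 5 in each were shared. The pair at 15064673 in Sham and 15064691 in TAC stood at places 12.1% and 4.52%, with 37.3 and 60.7 depth-scaled tags, a ratio of 1.63 (1.13 to 2.37). The other 4 pairs had ratios below 1 (from 0.763 to 0.947), each interval spanning 1. The 2 unshared peaks of the 9 genes with the most inferred tags were TAC-only peaks of Myom2. One in the flank, 15137578 to 15138203, stood at place 16.8% and lay 8221 bp from the nearest Sham peak. The other, 15062998 to 15063623, stood at 23.3% and lay 1049 bp from one. A Sham-only peak, 15057848 to 15058348, lay at the lower-coordinate end of the gene at place 69.0%.

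Mybpc3 encodes cardiac myosin-binding protein C, a regulator of cross-bridges on the thick filament. On chromosome 2 (91118114 to 91136516, 18.4 kb) it held 3 peaks in each library, the highest density of the 9 genes at 1.06 per 10 kb, but 2 of 3 lay in the flank. The strongest, 91113402 to 91115128 in Sham and 91113684 to 91115173 in TAC, lies inside the neighbouring gene Spi1, a transcription factor gene of blood cells. It stood at places 1.19% and 3.73% and at 111.2 and 66.2 tags, a ratio of 0.595 (0.454 to 0.776), after the Myom1 pair the lowest of the 39. Spi1 is active in immune cells, and the part of such cells in this peak was not tested. The peak nearer to the start, 91116496 to 91117150 in TAC and 91116513 to 91117013 in Sham, had 19.1 and 11.1 tags, a ratio of 1.72 (0.874 to 3.53). Inside the gene each library had 1 peak, 91125881 to 91126381 in TAC (place 40.7%) and 91127164 to 91127664 in Sham (56.7%), 782 bp apart.

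Sharing followed the order of the lists in these genes as in the rest of the genome. In the first 25% of rows 13 of 13 Sham peaks and 18 of 20 TAC peaks were shared, beside 93.8% and 91.5% of all peaks there. In the last 25% they were 3 of 15 and 2 of 18, beside 40.7% and 25.8%. Unshared peaks stood at a median place of 77.9% in Sham and 71.1% in TAC, and 3 Sham-only and 9 TAC-only peaks fell in the first 50%. A peak of the other library lay within 1 kb of 5 of the 21 Sham-only peaks and of 3 of the 35 TAC-only peaks, where the shares over all unshared peaks were 13.4% and 8.7%.

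**Figure D3:**
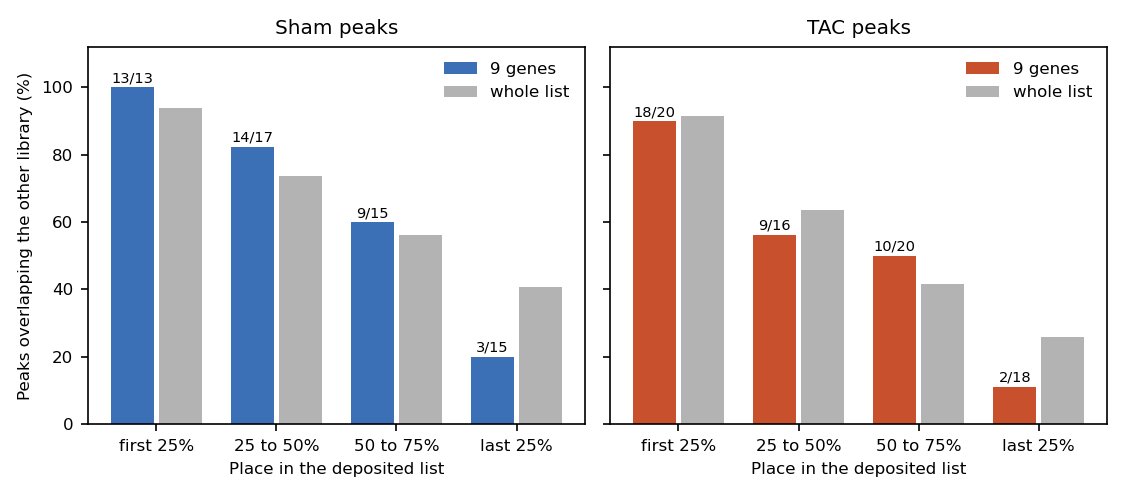
Share of peaks counted as shared (y axis, percent) by place in the deposited list, for the 9 genes (coloured, with counts) and the whole list (grey). The share falls from 13 of 13 to 3 of 15 in Sham and from 18 of 20 to 2 of 18 in TAC.

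Taken over the 39 pairs of shared peaks, the median TAC to Sham ratio of depth-scaled tags was 1.09, beside 1.07 over 88112 pairs of the whole lists. TAC was higher in 23 (59.0%, with 56.4% over all pairs) and lower in 16. The counting interval lay above 1 in 7 pairs (17.9%), where 15% of all pairs did, and below 1 in 2 pairs (5.13%), where 8.8% did. The pairs above 1 were 4 in Nebl, 2 in Myom1 and 1 in Myom2, and those below were 1 each in Myom1 and Mybpc3. These shares of intervals are near those of the whole lists. TAC peaks were wider in 18 pairs (46.2%), narrower in 7 (17.9%) and equal in 14, where over all pairs 34.8% were wider and 32.0% narrower. The covered length was 34.0 kb in Sham and 45.3 kb in TAC, a ratio of 1.33, at mean widths of 572 and 618 bp. Over the whole lists the ratio of covered length was 1.16, and the mean width was 653 bp in Sham and 634 bp in TAC, the opposite order. The difference in width from the whole lists was not tested, nor was the part of width, or of the larger share of TAC tags in peaks, in the ratios of tags.

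**Figure D4:**
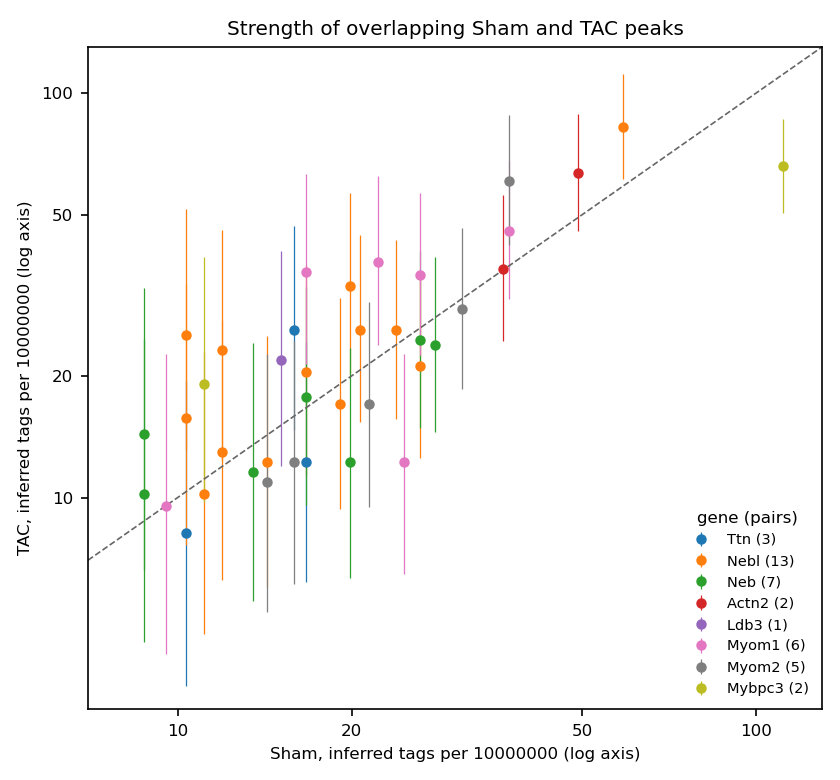
Inferred tags per 10000000 of each overlapping pair of peaks in Sham (x axis) and TAC (y axis), both on log axes, coloured by gene with the number of pairs. Bars are 95% counting intervals of the ratio drawn around the TAC value, and the dashed line marks equality. Most bars cross the line, and the strongest Sham peak, in the flank of Mybpc3 at 111.2, lies below it.

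A related list of 58 genes of the Z-disc, the M-band, titin's partners and thin filament length was counted in the same way. Sham had 197 peaks over it and TAC 232, or 1.18 times as many (0.970 to 1.43). Of its 52 genes with a peak, 26 (50%) had more in TAC and 13 (25%) more in Sham, and 6 genes had none, among them Des, the desmin gene, and Cryab, a chaperone gene. Of 27 genes with 5 or more peaks, 11 (40.7%) had at least 1.5 times as many in TAC and 3 (11.1%) in Sham, where the shares over all genes were 24.9% and 17.2%, and the median ratio was 1.2, beside 1 over all protein-coding genes with 5 or more. The largest excesses of TAC peaks were in Palld, encoding the actin-binding palladin (10 and 20), Nrap, of the forming Z-disc (5 and 10), Fhl2, a LIM protein of the I-band (4 and 9), and Pdlim5, a PDZ and LIM protein (2 and 7). Genes with more Sham than TAC peaks included Mybphl (7 and 3), Myom3, the third myomesin gene (12 and 9), and Capn3, a protease bound to titin (6 and 3). With the TAC list reduced to the Sham number of rows, the ratio over this list was 1.01.

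The protein-coding genes most like Ttn in length and peak numbers were Nxph1 (5 Sham and 10 TAC peaks), Ralgapa2 (5 and 9) and Zfp978 (6 and 10), and those most like Nebl were Fbxl7 (19 and 24), Rgs7 (20 and 24) and Cadm1 (20 and 24). Likeness was the sum of the differences in both counts, over 2 libraries, among genes within 20% of the length. It was 0 for Nxph1 and Fbxl7 and 1 for the others. The 500 kb beyond each of the 9 windows together held 652 peaks in Sham and 701 in TAC, or 1.08 times as many, and by gene the ratio ran from 0.923 around Myom1 to 1.30 around Nebl.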

How the data were processed

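MeDIP-seq libraries of Sham and TAC cardiomyocytes and their input were processed with BWA 0.7.4-r385, Picard and HOMER 4.5 on mm10, as the submitters' processing notes list them. Peaks were called per library against the input in HOMER's histone style, with peaks of 500 bp stitched into regions and at least 4-fold over input, per the file headers. The score that the authors deposited is 1 for every peak and ranks nothing. Positions are 1-based.

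Gene bodies were those of RefSeq GRCm38.p6. Intervals are exact (Clopper-Pearson, 95%) and cover counting error only. Each list falls into blocks sorted by position (352 in Sham, 414 in TAC). Reading each block as 1 tag fewer, with 8 in the last, sums to 99.3% of the tags in peaks that both headers give. The reading was inferred from these sums, so the match is not an independent check of it. This inferred tag number is a reading of the lists and puts 3.25% of peaks in each list below the header's threshold. Peaks of one block are tied in strength, and the largest block holds 10.5% of Sham rows and 8.57% of TAC rows. Depth-scaled tags are inferred tags per 10000000 total tags. They are totals over each called peak and were not divided by its width.

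A gene counted as having more peaks in 1 library at any difference in number. The separate counts at 1.5 times as many peaks took only genes with 5 or more in all. All 9 genes are described. From the related list the 4 largest differences each way were to be named, of which 1 is not reported here, and single peaks where widest, first or last in order, at a gene end, or unshared in the first 50% of rows. The pairs whose interval excludes 1, and further peaks, were named after their values were seen. Members and lists were chosen with earlier results of these data known. Functions were tested on simulated lists, with Python 3.11.15 and scipy 1.17.1.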

Additional observations from a re-analysis of the deposited data

How the results depend on the processing

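Other overlaps, flanks, assignments, list lengths and pools of genes gave 68 values for the pooled results. Of these, 67 stayed within the interval of the reported value, which was often wide, or within 1.5 times a reported count. The exception was the number of genes with more TAC than Sham peaks, 5 as reported and 3 with the TAC list reduced to its first rows, as many as Sham has. The ratio of peaks ran from 1.02 with that reduced list to 1.23, and that of unshared peaks from 1.05 with it to 1.75. The ratio of covered length ran from 1.14 to 1.36. It has no interval of its own and was held against that of the ratio of peaks. The ratio of peaks over the related list ran from 1.01 to 1.27. The shared part ran from 61.7% to 73.3% in Sham and from 50% to 62.3% in TAC. At a nearly equal threshold per tag (at least 11 in Sham and 13 in TAC) the genes held 59 and 62 peaks, and 4 genes had more TAC peaks. For single genes and the last part of the gene bodies 66 of 67 values stayed within their wide intervals, and the TAC share of Ttn fell to 33.3% in the first 50% of rows, where it rests on 3 peaks. No paired analysis was possible because each group has 1 library. Depth limits the comparison, since the thresholds lie at 11 and 12 tags.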

Other observations

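The bodies of the 7 genes with a strand in the promoter table were cut into 3 equal parts from the start, and the excess of TAC peaks lay in the last part. The first part held 17 Sham and 18 TAC peaks, the middle 13 and 14, and the last 8 and 16, of which 3 and 11 were unshared. In the last part Nebl held 2 Sham and 6 TAC peaks, Flnc 1 and 3, Actn2 0 and 2, Ttn 2 and 3, Ldb3 2 and 1, Myom1 1 and 1, and Mybpc3 0 and 0. Over all 17492 protein-coding genes with a strand the ratio of TAC to Sham peaks ran the other way, at 1.14 in the first, 1.07 in the middle and 1.01 in the last part. The ratio of 2.0 in the last part of the 7 genes had an interval of 0.808 to 5.40. It was 1.38 (8 and 11 peaks) with the TAC list reduced to the Sham number of rows and 1.5 (8 and 12) at the nearly equal threshold per tag, settings chosen for it after seeing the data. The pattern was noticed in these data, and no test of it was run.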
